A study of Homo sapiens with 6 samples.

Results

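NID1, EDIL3, SRPX, CRIM1, SDC4, CSTA, MFAP4, LGALS3BP, COL24A1 and SCGB3A1 are 10 genes for matrix, secreted and cell surface proteins, followed here in a leukaemia cell line with added SPNS2. They were picked among the 34371 rows of the count table because they differed strongly between the SPNS2 and the empty vector libraries. Each had 1 row, matched by its Ensembl gene ID. They lie on 7 chromosomes: NID1 and COL24A1 on chromosome 1, CRIM1 on 2, CSTA on 3, EDIL3 and SCGB3A1 on 5, MFAP4 and LGALS3BP on 17, SDC4 on 20 and SRPX on X. The same values that chose them are given below, so their levels and fold changes are a description and carry no test. The cells were ME-1, a human line of acute myeloid leukaemia that carries the CBFB::MYH11 fusion. One set of cells had been transduced to overexpress SPNS2, whose product carries sphingosine-1-phosphate out of cells, and the other set with an empty vector. Infected cells of both kinds had been selected before polyadenylated RNA was sequenced, with 3 libraries from each. Nothing in the labels ties the libraries of a group to separate cultures, so every p-value here reflects a spread that may be technical.

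The extracellular matrix is built from collagens, elastic microfibrils and basement membrane sheets, to which cells hold through integrins and heparan sulphate proteoglycans. Blood cells lay down little of it, but leukaemic cells rest against the matrix of the bone marrow and carry receptors for it. Of the 10 proteins, NID1, EDIL3, MFAP4 and COL24A1 belong to the matrix itself, and SRPX, LGALS3BP and SCGB3A1 are secreted. SDC4 and CRIM1 are membrane-spanning proteins with large outer domains. CSTA, also called stefin A, works mainly inside cells, so the word secreted does not cover it.

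The libraries held 31361562 to 33540256 counts with SPNS2 and 28605187 to 38489992 with the empty vector. The vector's own SPNS2 sequence had a separate row, with 25283, 24792 and 25752 counts in the SPNS2 libraries and 9, 3 and 0 in the empty vector libraries. The cells' native SPNS2 gene was expressed in both groups. Its row had 1611, 1548 and 1773 counts in SPNS2 libraries and 1723, 1199 and 1319 in empty vector libraries. Its log2 fold change was 0.25 (SE 0.0418; edgeR adjusted p = 0.00166). The cell line label was checked against markers. All 7 myeloid leukaemia markers had counts enough to be tested. Of these, 3 rose and 2 fell (edgeR, adjusted p under 0.05), where 24.5% of all 13308 tested features were called. The 7 markers summed to 29023.1 to 30489.7 CPM in SPNS2 and 28959.0 to 29381.0 CPM in empty vector libraries. CPM is each count divided by its library's total over tested features, scaled by the TMM factor, on the usual common scale. KIT, CSF3R and PTPRC rose, by 0.55, 0.26 and 0.26 on the log2 scale, and CD33 and CD34 fell, by 0.71 and 0.25. The receptor KIT was at 2287.1 ± 38.6 CPM in SPNS2 and 1566.9 ± 21.4 CPM in empty vector libraries, and CD33 at 22.9 ± 1.1 and 37.4 ± 0.0932 CPM in the same groups (SD, n = 3 each). The part of such marker changes in the results below was not tested. MPO, the granule enzyme myeloperoxidase, was at 26003 ± 759 CPM in SPNS2 and 26140 ± 221 CPM in empty vector libraries (SD, n = 3 each). The 7 fibroblast markers summed to 1.54 to 1.82 CPM in SPNS2 libraries and 1.09 to 1.72 CPM in empty vector libraries, with LUM at 0, and the 5 endothelial markers to 0.0309 to 0.178 CPM and 0.031 to 0.156 CPM, with CDH5 and CLDN5 at 0. Of 5 epithelial markers, KRT5 and KRT19 were at 0 and EPCAM alone was abundant, at 142.2 ± 1.45 CPM in SPNS2 and 124.4 ± 4.57 CPM in empty vector libraries (SD, n = 3 each).

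RefSeq promoter sequence of GRCh38.p14 was at hand for 7 of the 10 genes, and 4 of them are shown because they stand for the genes that were higher and for those that were lower. Each stretch is the 250 bases before the start of transcription, 5′ to 3′ on the gene's strand, which is the minus strand for all 4. They lie at chr17:78979924-78980173, chr5:180591500-180591749, chr1:236065091-236065340 and chr20:45348425-45348674. Capitals mark matches to motifs searched on both strands: an ETS site (CCGGAAG) and an interferon response element (GAAA, any 2 bases, GAAA) in LGALS3BP, an EGR site (GCGNGGGCG) in SCGB3A1, a GC box (GGGCGG) in NID1, and GC boxes with an overlapping EGR site in SDC4.
LGALS3BP: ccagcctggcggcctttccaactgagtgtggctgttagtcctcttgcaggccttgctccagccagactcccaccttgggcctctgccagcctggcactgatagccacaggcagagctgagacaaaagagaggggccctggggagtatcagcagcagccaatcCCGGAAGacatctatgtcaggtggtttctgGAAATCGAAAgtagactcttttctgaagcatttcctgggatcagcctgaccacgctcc
SCGB3A1: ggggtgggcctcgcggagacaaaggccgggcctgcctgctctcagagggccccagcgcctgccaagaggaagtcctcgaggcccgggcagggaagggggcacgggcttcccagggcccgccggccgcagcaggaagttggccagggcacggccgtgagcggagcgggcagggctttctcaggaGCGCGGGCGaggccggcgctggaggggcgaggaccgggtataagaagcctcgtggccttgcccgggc
NID1: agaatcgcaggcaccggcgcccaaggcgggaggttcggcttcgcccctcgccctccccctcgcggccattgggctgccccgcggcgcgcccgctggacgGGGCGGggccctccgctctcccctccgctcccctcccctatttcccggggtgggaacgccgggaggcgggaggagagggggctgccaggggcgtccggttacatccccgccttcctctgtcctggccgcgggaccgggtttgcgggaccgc
SDC4: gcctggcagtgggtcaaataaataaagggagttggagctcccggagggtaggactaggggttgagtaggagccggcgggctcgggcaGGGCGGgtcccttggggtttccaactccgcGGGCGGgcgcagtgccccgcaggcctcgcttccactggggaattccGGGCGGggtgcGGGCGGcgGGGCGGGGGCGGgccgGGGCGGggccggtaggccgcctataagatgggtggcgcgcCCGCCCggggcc
The interferon response element was present in 1 of the 7 genes, LGALS3BP, at bases -58 to -49 from the start, and in 3.02% of all 35114 promoter windows of this length. The ETS site was also found in LGALS3BP alone of the 7, against 8.52% of all windows. COL24A1 and EDIL3 have 2 windows each, and the 2 of EDIL3 overlap and share the same GC boxes. The GC box stood in 6 of the 9 windows of the 7 genes, against 42.6% of all windows. These 6 came from 5 genes: both overlapping windows of EDIL3, 1 of COL24A1 and those of NID1, SRPX and SDC4, with 8 matches in SDC4. The EGR site was in SCGB3A1 and SDC4, against 8.41% of all windows. Neither the AP-1 site (TGANTCA, 6.57% of all windows), nor the TATA box (TATAAA, 10.7%), nor the RUNX site (TGTGGT, 11%) was written in any of these windows. Only full matches were counted, so TATAAG in SCGB3A1 and in SDC4 was not. A match is a run of letters and not a site shown to be used. LGALS3BP also had the lowest G and C content of the 7, at 56.8% with 4 CpG, against 76.4% with 30 CpG in NID1. Its content was near the median of all windows, 58%, and 46.2% of windows had a lower one.

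With SPNS2, 6 of the 10 genes were lower and 4 were higher. The lower genes were NID1, SDC4, CSTA, EDIL3, SRPX and CRIM1, by 2.42-fold to 3.84-fold in mean CPM. The higher genes were SCGB3A1, COL24A1, MFAP4 and LGALS3BP, by 1.66-fold to 2.60-fold. The groups did not overlap for any of the 10, and 8 differed by more than 2-fold, 2 of them higher and 6 lower. Since the genes were picked on this difference, those counts say nothing further about them: of 13308 tested features, groups did not overlap for 40.1%, and 1.37% differed by more than 2-fold, with 0.827% higher and 0.541% lower. All 10 passed the filter on low counts. In such bulk RNA, fewer cells that express a gene and less of its RNA per cell cannot be told apart.

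**Figure D1:**
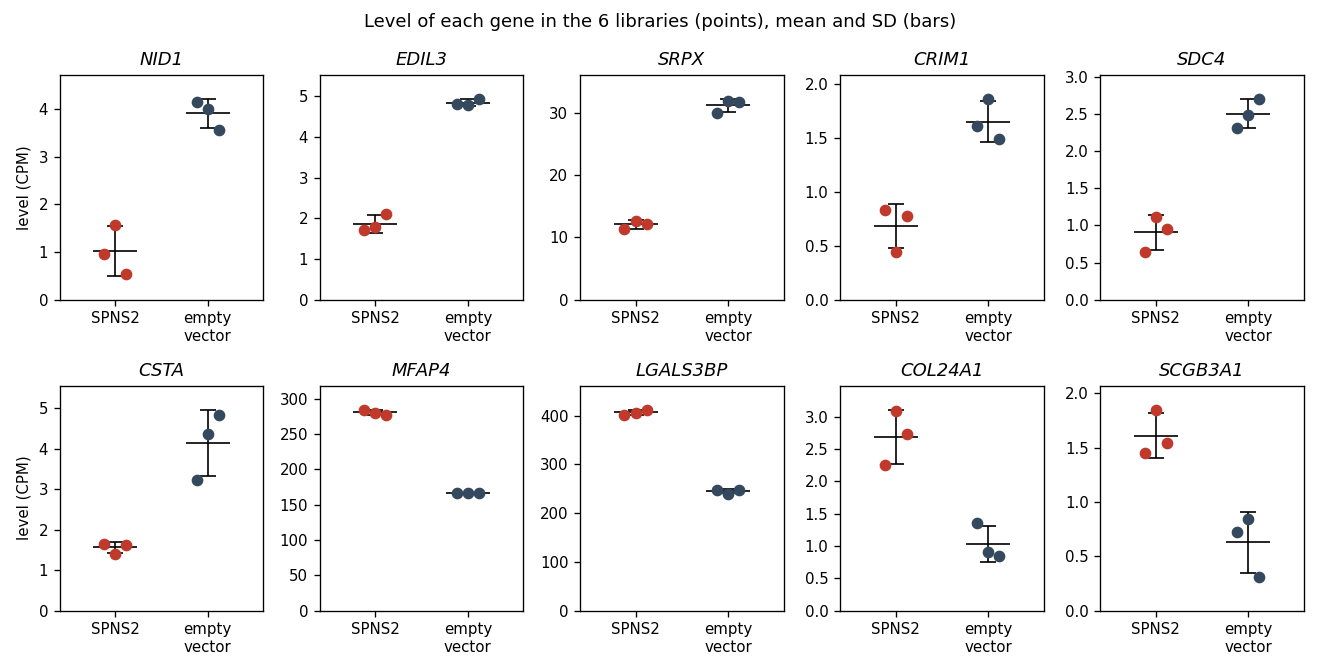
Level of each gene (CPM, linear axes from 0, a scale of its own for each gene) in the 3 SPNS2 libraries (left) and the 3 empty vector libraries (right). Points are libraries, and bars are the mean and SD; in every panel the points of one group lie wholly above those of the other.

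NID1 encodes nidogen-1, the basement membrane glycoprotein that links laminin to collagen IV. It was at 0.956, 1.56 and 0.534 CPM in SPNS2 libraries 1, 2 and 3, against 4.15, 4.0 and 3.57 CPM in empty vector libraries. The lowest empty vector library stood 2.29-fold above the highest SPNS2 library. The log2 fold change was -1.95 (SE 0.268), the largest of the 10 in size, and ranged from -2.39 to -1.64 when 1 library was left out. The SPNS2 libraries differed among themselves: their counts of 31, 49 and 18 had exact 95% Poisson intervals of 21.1 to 44.0, 36.3 to 64.8 and 10.7 to 28.4, and those of libraries 2 and 3 did not meet. Without molecular identifiers, reads are not independent molecules, and counting intervals here leave out every other error.

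EDIL3 is a secreted protein with EGF-like repeats and discoidin domains that binds integrins through an RGD motif, and is known to limit the adhesion of leukocytes to endothelium. Its level was 1.70, 1.78 and 2.11 CPM in SPNS2 libraries and 4.8, 4.78 and 4.93 CPM in empty vector libraries. Of the 8 genes under 40 CPM it varied least between empty vector libraries, with a coefficient of variation of 1.77%. The log2 fold change was -1.37 (SE 0.127).

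SRPX, a secreted protein with sushi repeats named for its place on the X chromosome, was the most abundant of the lower genes. It was at 11.4, 12.7 and 12.1 CPM in SPNS2 libraries, against 30.0, 31.9 and 31.7 CPM in empty vector libraries. Its log2 fold change of -1.37 had the smallest standard error of the lower genes, 0.0548. Leaving out 1 library gave -1.41 to -1.33.

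SDC4 and CRIM1 are the membrane proteins of the set. SDC4, or syndecan-4, is a heparan sulphate proteoglycan of focal adhesions, and it was at 0.648, 1.11 and 0.949 CPM in SPNS2 libraries and 2.31, 2.49 and 2.70 CPM in empty vector libraries (log2 fold change -1.46, SE 0.202). CRIM1 carries cysteine-rich repeats and binds bone morphogenetic proteins (BMPs) at the cell surface. It was at 0.833, 0.446 and 0.771 CPM in SPNS2 libraries, against 1.61, 1.86 and 1.49 CPM in empty vector libraries. With 67 counts in all SPNS2 libraries together and 163 in the empty vector libraries, CRIM1 had the fewest counts of the lower genes, and its summed ratio of 2.38 in favour of empty vector had an exact 95% counting interval of 1.78 to 3.21.

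CSTA inhibits cysteine cathepsins. It was at 1.64, 1.40 and 1.63 CPM in SPNS2 libraries and 3.24, 4.36 and 4.84 CPM in empty vector libraries (log2 fold change -1.41, SE 0.172). Here the empty vector libraries spread more than the SPNS2 libraries, with coefficients of variation of 8.62% in SPNS2 and 19.8% in empty vector.

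MFAP4 and LGALS3BP were far more abundant than the rest and moved by nearly the same amount. MFAP4, a fibrinogen-related glycoprotein of elastic microfibrils, was at 284.6, 279.8 and 277.7 CPM in SPNS2 libraries, against 166.9, 167.1 and 167.0 CPM in empty vector libraries. LGALS3BP, a glycoprotein that binds galectins and is known as a target of interferon, was at 400.9, 405.9 and 412.0 CPM in SPNS2 libraries, against 248.0, 239.5 and 248.1 CPM in empty vector libraries. Their log2 fold changes were 0.75 (SE 0.0244) and 0.73 (SE 0.0254). The counts of MFAP4 were 0.673 to 0.71 times those of LGALS3BP in each of the 6 libraries. Together they held 96.8% of all counts of the 10 genes in SPNS2 libraries and 89.2% in empty vector libraries, so a sum over the set would follow this pair alone. RefSeq places MAPK7, the gene of the kinase ERK5, so that it overlaps MFAP4. MAPK7 was at 10 ± 0.846 CPM in SPNS2 and 10.5 ± 0.737 CPM in empty vector libraries (SD, n = 3 each), far under MFAP4.

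COL24A1 and SCGB3A1 were higher with SPNS2 from a low level. COL24A1, a fibrillar collagen, was at 2.25, 3.09 and 2.73 CPM in SPNS2 libraries and 1.35, 0.913 and 0.838 CPM in empty vector libraries (log2 fold change 1.36, SE 0.209). SCGB3A1 is a small secretoglobin best known from airway epithelium. It was at 1.45, 1.85 and 1.54 CPM in SPNS2 libraries, against 0.726, 0.843 and 0.310 CPM in empty vector libraries (log2 fold change 1.36, SE 0.295). Its counts of 28, 24 and 10 in the empty vector libraries set this value: the log2 fold change ranged from 1.04 to 1.6 with 1 library left out, the widest range of the higher genes. The summed ratio of SCGB3A1 was 2.59 (exact 95% counting interval 1.92 to 3.54).

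Genes can be compared with each other only per length, here as CPM per kilobase of the longest GENCODE 29 transcript, which understates a gene that uses a shorter form. On that scale LGALS3BP came first and MFAP4 second in both groups, above 97.5% and 97.0% of the tested features. LGALS3BP was at 168.9 ± 2.30 CPM per kb in SPNS2 and 102.0 ± 2.05 CPM per kb in empty vector libraries, and SRPX, the third, at 6.44 ± 0.361 CPM per kb and 16.7 ± 0.553 CPM per kb (SD, n = 3 each). The other 7 lay lower. In SPNS2 libraries SCGB3A1 at 2.26 CPM per kb stood above CSTA at 1.89 CPM per kb, whereas in empty vector libraries CSTA was at 5.05 CPM per kb and SCGB3A1 at 0.877 CPM per kb. Neighbours in the order overlapped in SPNS2 libraries for COL24A1, EDIL3, SDC4, NID1 and CRIM1, from 0.394 down to 0.116 CPM per kb. In empty vector libraries they overlapped for EDIL3, SDC4, SCGB3A1 and NID1, from 1.02 down to 0.666 CPM per kb, and COL24A1 came last at 0.151 CPM per kb.

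The rule for the set did not use the closest relatives of the 10 genes or, for MFAP4, another microfibril gene, MFAP2. These were tested in the fit across all features (edgeR quasi-likelihood test, called at an adjusted p under 0.05). SDC1, syndecan-1, fell like SDC4. It was at 7.28, 6.78 and 7.68 CPM in SPNS2 libraries, against 16.3, 14.1 and 12.3 CPM in empty vector libraries (log2 fold change -0.97, SE of 0.104; edgeR adjusted p = 8.66e-05). MFAP2, a microfibril glycoprotein of another protein family than MFAP4, fell to 14.0 ± 0.796 CPM in SPNS2, against 17.4 ± 0.897 CPM in empty vector libraries (SD, n = 3 each; edgeR adjusted p = 0.00381), while MFAP4 was higher. Apart from SDC1, the relatives with enough counts did not pass. The log2 fold change was 0.47 (SE 0.354) for NID2, 0.15 (SE 0.113) for MFGE8, the relative of EDIL3, and -0.03 (SE 0.228) for KCP, a BMP regulator with similar repeats to CRIM1. It was -0.48 (SE 0.192) for SDC3, 0.06 (SE 0.0339) for CSTB and -0.25 (SE 0.0956) for COL27A1. SDC2, SRPX2 and SCGB3A2 had too few counts to test, with 22, 3 and 40 counts over the 6 libraries. So had LGALS3, which is not a relative but a galectin that LGALS3BP binds, with 47 counts.

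**Figure D2:**
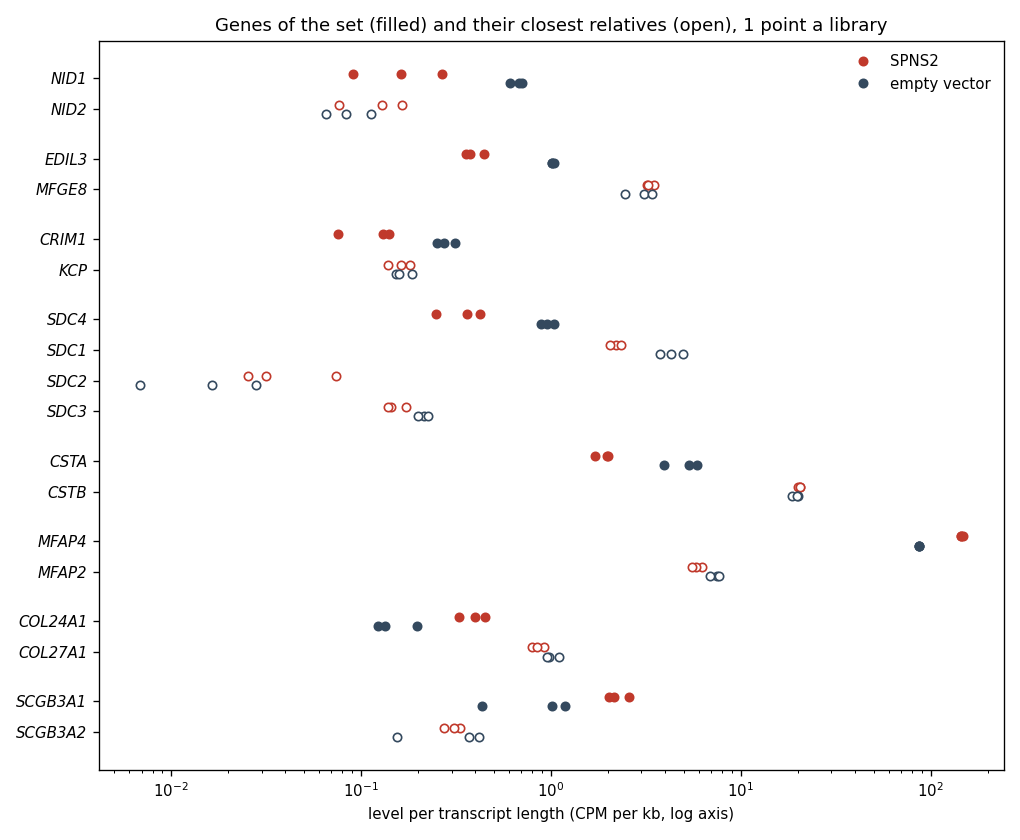
Level per transcript length (CPM per kb, log axis) of genes of the set (filled) and their closest relatives (open), with 1 point a library, SPNS2 above empty vector. MFAP2, drawn open beside MFAP4, is of another protein family and not a relative. MFAP4 and CSTB are the most abundant of those drawn, and NID1 lies above NID2 in all 3 empty vector libraries.

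Per length, the set was not always the main member of its family. SDC1 was at 2.20 ± 0.137 CPM per kb in SPNS2 and 4.32 ± 0.617 CPM per kb in empty vector libraries, and SDC4 at 0.346 ± 0.0905 and 0.957 ± 0.075 CPM per kb in the same groups (SD, n = 3 each). MFGE8 likewise stood above EDIL3, at 3.31 ± 0.155 CPM per kb in SPNS2 and 2.99 ± 0.477 CPM per kb in empty vector libraries. For nidogen the order was close in SPNS2 libraries, with NID1 at 0.173 ± 0.088 and NID2 at 0.124 ± 0.0445 CPM per kb, and apart in empty vector libraries, with NID1 at 0.666 ± 0.0515 and NID2 at 0.0876 ± 0.024 CPM per kb.

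Partners and pathways of the 10 proteins were followed in 11 lists, of which the secretoglobins had no gene with enough counts. In all, 150 of 264 listed genes were tested, and 26 rose, 23 fell and 101 did not pass. The lists were drawn up with earlier results of these data known. That is 32.7% called, against 24.5% of all 13308 tested features, of which 11.9% rose and 12.6% fell. The median log2 fold change of the listed genes was 0.01, and that of all features 0.00.

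Among 17 tested basement membrane genes, the partners of nidogen, 5 rose and 3 fell, with a median log2 fold change of 0.11. LAMC1, the laminin chain to which nidogen binds, fell to 36.3 ± 1.28 CPM in SPNS2, against 48.9 ± 2.26 CPM in empty vector libraries (log2 fold change -0.43, SE of 0.0427; edgeR adjusted p = 5.29e-05). SPARC, a collagen-binding matrix glycoprotein, rose to 388.8 ± 5.41 CPM in SPNS2, against 323.4 ± 6.72 CPM in empty vector libraries (SD, n = 3 each; edgeR adjusted p = 4.24e-05). COL18A1 and COL4A5, a collagen IV chain, rose by 0.39 and 0.28 on the log2 scale. The other collagen IV chains, named after their values were seen, were not called. COL4A1, COL4A2 and COL4A3 had 1, 4 and 3 counts over the 6 libraries, too few to test, and COL4A4 and COL4A6 did not pass. Without empty vector library 3, 5 genes of this list were called in place of 8. Among 13 tested integrin subunits of RGD receptors and discoidin proteins, which include the receptors of EDIL3, 4 rose and 1 fell. ITGAV, the alpha-v subunit, rose by 0.20 (SE 0.0417). No beta subunit of the list was called, and these are named after their values were seen. The log2 fold change was 0.0 (SE 0.0328) for ITGB1, 0.60 (SE 0.422) for ITGB3 and -0.02 (SE 0.255) for ITGB8. ITGB5 and ITGB6 had too few counts to test, 4 and 13 in all. EGFL7, a secreted protein with EGF-like repeats, rose by 0.19 (SE 0.028). It was in this list although it is neither an integrin subunit nor a discoidin protein. NRP2 showed a log2 fold change of -0.75 (edgeR adjusted p = 0.0195), which missed the threshold when SPNS2 library 1 (0.0684), SPNS2 library 2 (0.0585) or empty vector library 1 (0.0782) was left out. ITGA5 had one of 0.09 (edgeR adjusted p = 0.0306), a call lost on leaving out any SPNS2 library (0.0582, 0.0938 and 0.0807 without 1, 2 and 3), empty vector library 2 (0.0676) or empty vector library 3 (0.119). In this list 2 genes were called on leaving out SPNS2 library 1 or 2, and 3 on leaving out empty vector library 2 or 3.

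The list of syndecans, glypicans and heparan sulphate enzymes had 23 tested genes, of which 2 rose and 4 fell, with a median log2 fold change of -0.04. It mixes core proteins with the enzymes that build and trim their chains: SDC1, given above, is among the falls, and SDCBP, a syndecan adaptor named after its value was seen, among the rises. HPSE, the heparanase that cuts these chains, fell by 0.44 on the log2 scale (SE of 0.0776; edgeR adjusted p = 0.00213). XYLT1, which starts the chains, rose by 0.39 (SE 0.0752), and B3GALT6, which extends their linker, fell by 0.19 (SE 0.0354). Of 15 tested BMP ligands, receptors and antagonists, the setting of CRIM1, 1 rose and 2 fell. FSTL1 fell to 1.37 ± 0.197 CPM in SPNS2, against 2.60 ± 0.206 CPM in empty vector libraries (SD, n = 3 each; log2 fold change -0.93; edgeR adjusted p = 0.00201). FSTL3, which binds activins, fell by 0.27, and NOG, the BMP antagonist noggin, rose by 0.16. Of 5 tested sushi domain genes, 2 rose, among them SUSD1 by 0.40 (SE 0.0842).

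Cystatins and cysteine proteases, the family and targets of CSTA, had 15 tested genes, of which 3 rose and 0 fell. CST3, the secreted inhibitor cystatin C, rose to 176.6 ± 6.26 CPM in SPNS2, against 115.3 ± 4.60 CPM in empty vector libraries (SD, n = 3 each; log2 fold change 0.62, SE of 0.0368; edgeR adjusted p = 1.45e-06). CTSF and CTSS, both cathepsins, rose by 0.32 and 0.23 on the log2 scale. Of 5 tested genes in the list of galectins, a family of which LGALS3BP binds some members, 1 rose and 2 fell. LGALS12 fell to 82.4 ± 1.31 CPM in SPNS2, against 104.4 ± 1.33 CPM in empty vector libraries, and LGALSL fell by 0.75 on the log2 scale. LGALS9 was the most abundant of those named, at 236.2 ± 10.1 CPM in SPNS2 and 211.1 ± 5.91 CPM in empty vector libraries (SD, n = 3 each; log2 fold change 0.16; edgeR adjusted p = 0.00608).

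Microfibril genes around MFAP4 had 14 tested, of which 1 rose and 3 fell. EMILIN2 fell to 131.0 ± 2.54 CPM in SPNS2, against 168.7 ± 5.10 CPM in empty vector libraries (SD, n = 3 each; log2 fold change -0.36; edgeR adjusted p = 1.83e-05), LTBP4 fell by 0.18, and LTBP3 rose by 0.31. Of 24 tested fibrillar collagens and collagen processing genes, 3 rose and 5 fell. P3H3, a prolyl hydroxylase relative, fell by 0.54 (SE of 0.0501; edgeR adjusted p = 3.56e-05) and SERPINH1, the collagen chaperone HSP47, by 0.24 (SE 0.0256). COLGALT1 fell by 0.13, and ADAMTS3, a procollagen protease, rose by 0.75 (SE 0.113). Without SPNS2 library 1 or 2, 5 genes of this list were called in place of 8. Of 19 tested matrix proteases, sheddases and inhibitors, 4 rose and 3 fell. MMP2, a gelatinase, was at 6.45, 5.70 and 6.38 CPM in SPNS2 libraries, against 3.03, 3.02 and 3.26 CPM in empty vector libraries (log2 fold change 0.99, SE of 0.108; edgeR adjusted p = 0.000102). TIMP1 and TIMP2, inhibitors of such proteases, rose by 0.41 and 0.30 on the log2 scale, and ADAM15 fell by 0.20.

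**Figure D3:**
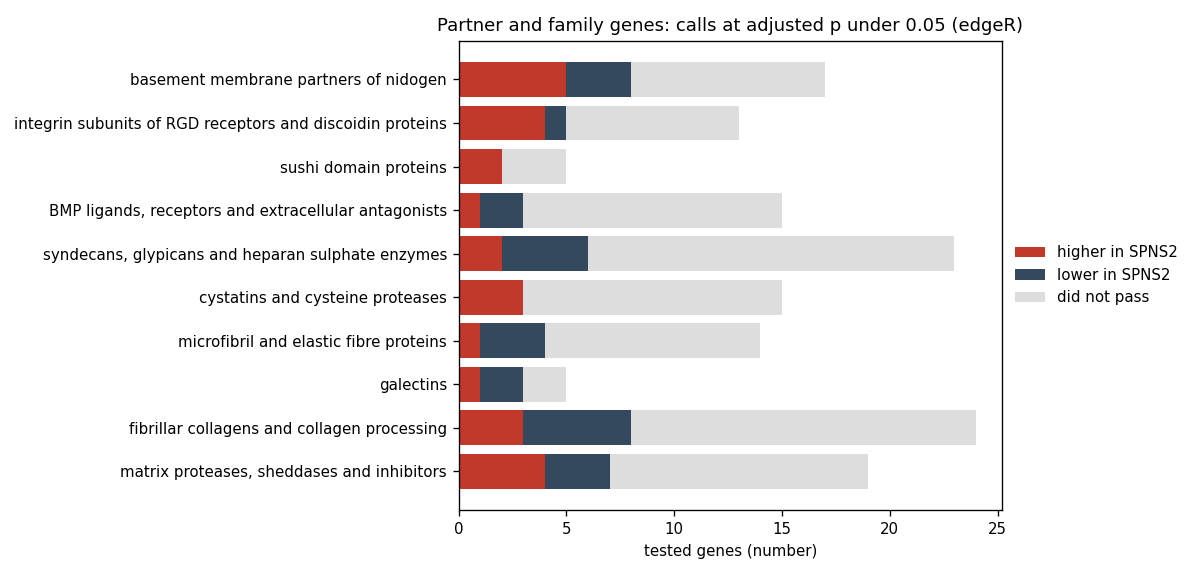
Number of tested genes (x axis) in each list of partners and relatives that were higher in SPNS2, lower in SPNS2 or did not pass at an adjusted p under 0.05. Rises and falls stand side by side in most lists, with 5 and 3 for the basement membrane and 3 and 5 for collagens; the cystatin list had 3 rises and the sushi list 2, with no fall in these lists.

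The nearest tested gene on each side of each of the 10, in RefSeq order, was a further measure that the choice had not used. Such a gene was not always adjacent, because RefSeq genes without a tested row were passed over. There were 26 of them between FAM98A and CRIM1, and 14 and 18 between EDIL3 and its neighbours XRCC4 and COX7C. Between SDC4 and its neighbours SLPI and SYS1 there were 3 and 0. Of these 20 neighbours, 2 rose, 2 fell and 16 did not pass, which is 20% called against 24.5% of all tested features. None differed by more than 2-fold, and their log2 fold changes ran from -0.39 to 0.30. TIMP2, beside LGALS3BP, rose to 160.6 ± 1.62 CPM in SPNS2, against 130.8 ± 2.80 CPM in empty vector libraries (SD, n = 3 each; log2 fold change 0.30; edgeR adjusted p = 3.75e-05). SLPI, a secreted protease inhibitor beside SDC4, fell to 13.1 ± 1.22 CPM in SPNS2, against 16.5 ± 1.16 CPM in empty vector libraries (SD, n = 3 each; log2 fold change -0.33; edgeR adjusted p = 0.0103). RPGR, beside SRPX, showed a log2 fold change of -0.34 (edgeR adjusted p = 0.015), a call lost on leaving out SPNS2 library 1 (0.055), SPNS2 library 3 (0.0548), empty vector library 1 (0.0643) or empty vector library 2 (0.0564). FEZ2, beside CRIM1, had one of 0.23 (edgeR adjusted p = 0.0234), opposite in sign to CRIM1, and missed it when SPNS2 library 1 (0.0894), SPNS2 library 2 (0.0562) or empty vector library 1 (0.0696) was left out. Without empty vector library 1 or SPNS2 library 1, 2 neighbours were called in place of 4. The others were LYST, GPR137B, XRCC4, COX7C, DYNLT3, FAM98A, SYS1, CASR, MIX23, MAPK7, RNF112, CANT1, ZNHIT6, ODF2L, CNOT6 and FLT4, of which FLT4, beside SCGB3A1, had the value farthest from 0, -0.39 (SE 0.254).

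**Figure D4:**
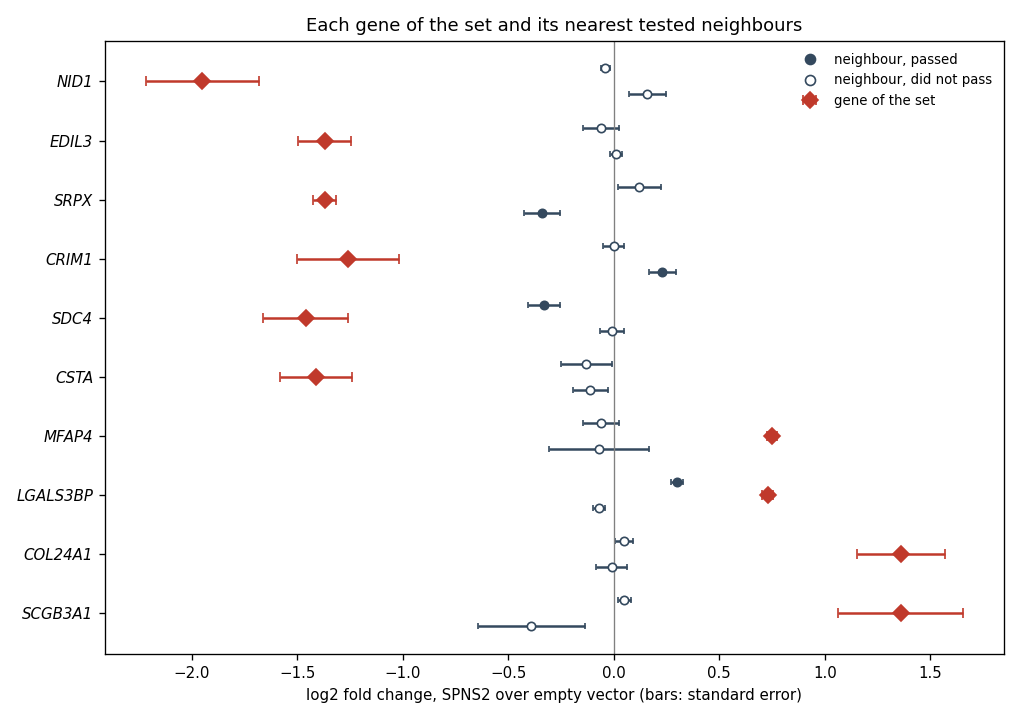
Log2 fold change of SPNS2 over empty vector (x axis, bars show the standard error) for each gene of the set (diamonds) and its nearest tested neighbours in RefSeq order (circles, filled where the adjusted p was under 0.05). The neighbours lie between -0.39 and 0.30, and the genes of the set from -1.95 to -1.26 and from 0.73 to 1.36. The genes of the set were picked for large changes and the neighbours were not, so this gap follows from the choice.

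The genes most like NID1 and SCGB3A1 over the 6 libraries were looked up among 11626 tested genes with a mean of at least 1 CPM, by the root mean square difference of log2 CPM after each gene's mean was removed. For NID1 they were FAM83G (0.364), MNDA (0.500) and SRPX (0.516), and SRPX is itself in the set. For SCGB3A1 they were MARCHF3 (0.226), TRIM6 (0.272) and METTL7A (0.329). TRIM6 was at 3.06 ± 0.262 CPM in SPNS2 and 0.973 ± 0.271 CPM in empty vector libraries, and FAM83G at 0.617 ± 0.098 and 2.59 ± 0.375 CPM in the same groups (SD, n = 3 each). The groups themselves make most of such a likeness, and no test was made of it.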

How the data were processed

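The labels' protocols name the TruSeq Stranded mRNA LT kit for all 6 ME-1 libraries. The authors deposited estimated counts per gene, as whole numbers, and Salmon is named in the submitters' processing notes. Its version, genome build, annotation and strand setting: not given in the sources used here. For 29120 of 34370 Ensembl IDs a symbol was found in GENCODE 29, RefSeq or a gene name table.

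After filterByExpr (minimum count 10, minimum total 15) and TMM scaling (factors 0.993 to 1.01), 13308 features entered edgeR's quasi-likelihood test (edgeR 4.0.16, R 4.3.3), which compared the groups with no covariate, with Benjamini-Hochberg adjustment over all features. Fold changes used a prior count of 0.125, and standard errors are the size of the log2 fold change divided by the root of F. Replicates differed beyond sampling noise (chi-square per degree of freedom 3.11 to 6.09). The script was tested on simulated data.

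The genes of the set, lists, motifs and tests were chosen with earlier results of these data known. Named were the 10 genes, SPNS2, and up to 4 called genes with the smallest p in each list. Named too were the closest relatives, the chromosomal neighbours, and the 3 genes most like the largest riser and the largest faller. In place of a relative, LGALS3BP was given its partner LGALS3, and MFAP4 the microfibril gene MFAP2. Of the listed genes, 3 were not analysed here, and 1 covered by these rules is not reported here. Alternatives were DESeq2 1.42.0, limma voom (limma 3.58.1), DESeq2 size factors, other filters and prior count, a replicate block and leaving out each library.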

Additional observations from a re-analysis of the deposited data

How the results depend on the processing

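All 10 genes of the set kept their direction under each of the 13 alternatives, with a move smaller than the spread between replicates in all 130 values. They were picked for large changes between these same libraries, and their groups did not overlap. The choice therefore largely fixed this outcome, which is no further support for the changes. The number of called features was 3263, and 2350 with DESeq2, 3238 with limma voom, 2723 with the replicate block and 2246 to 2738 with 1 library left out. Over all tested features, the correlation of deviations between libraries of the same number was 0.0312, 0.0375 and -0.0193. SPNS2 library 3 correlated best with empty vector library 1. MMP28 and CTSO nevertheless varied by library number. The correlation over all features gives such single genes little weight and cannot tell whether libraries of the same number shared an origin. The integrin and discoidin list fell from 5 called genes to 3 with DESeq2 and to 3 with the replicate block. With 1 library left out, the calls ranged from 2 to 4 in that list, from 5 to 7 in the basement membrane list, from 5 to 7 in the collagen list and from 2 to 4 among chromosomal neighbours, where fewer libraries enter each fit. ITGA5 was not called with the replicate block (adjusted p = 0.0659), nor NRP2 (0.101) and FEZ2 (0.0656) with DESeq2. Values near 0 changed sign without a call: with 1 library left out the log2 fold change ranged from -0.13 to 0.06 for KCP, -0.01 to 0.02 for COX7C, -0.03 to 0.03 for FAM98A (-0.00197 with limma voom and -0.00407 with no count filter), -0.04 to 0.02 for SYS1, -0.12 to 0.000569 for MAPK7, -0.14 to 0.05 for RNF112 and -0.05 to 0.02 for ODF2L. The cause was not tested. NID1, CRIM1 and SDC4 had 98, 67 and 88 counts over the SPNS2 libraries and SCGB3A1 had 62 over the empty vector libraries, and their counts in these groups varied by 8.52, 2.02, 1.99 and 4.0 times the variance that counting alone gives.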

Other observations

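Protease rows outside the named genes, chosen after their values were seen, held values that differed sharply within a group. MMP11, a stromelysin, had 98, 0 and 263 counts in SPNS2 libraries 1, 2 and 3, against 307, 260 and 207 in empty vector libraries. MMP28, or epilysin, had 298, 294 and 4 counts in SPNS2 libraries, against 133, 100 and 9 in empty vector libraries, so that library 3 was the low one in both groups. CTSO, a cathepsin, also differed by library number, with 21, 68 and 20 counts in SPNS2 libraries and 13, 68 and 10 in empty vector libraries. Neither MMP11 nor MMP28 passed (log2 fold change -1.10, adjusted p = 0.276, and 1.36; edgeR adjusted p = 0.302,), and the groups overlapped for both. EPCAM, an adhesion molecule of epithelium that was used here as a marker, rose by 0.19 on the log2 scale (SE of 0.032; edgeR adjusted p = 0.00137), with CDH1 at 0.237 ± 0.0713 CPM in SPNS2 and 0.145 ± 0.037 CPM in empty vector libraries (SD, n = 3 each).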
